A study of Mus musculus with 6 samples.

Results

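The data below describe 38 genes of the Notch pathway in cardiac progenitor (CP) cells made from mouse embryonic stem cells. They run from receptors and ligands to genes of the Hes and Hey families. The genes were chosen by their place in the pathway: 4 receptors, 5 ligands, 5 genes for receptor and ligand modification and 6 for receptor proteolysis. The rest are 6 intracellular modulators of the Numb and Deltex families, 4 genes of the nuclear complex and 8 grouped as targets. Together these genes are 38 of the 25701 genes in the expression table. Poly(A) RNA was sequenced from 3 libraries of 46C-Ctrl cells (genotype control) and 3 libraries labelled Zhx1-KO, all of them mESC-derived CP cells of the 46C line, an embryonic stem cell line that carries a GFP reporter at Sox1. The Zhx1-KO line was made with CRISPR/Cas9 and guides to the transcription start and stop sites of Zhx1, a zinc-finger and homeobox gene; whether the line was 1 clone is not stated. Both groups went through the same differentiation, first in medium with ascorbic acid and then with BMP4, Activin A and VEGF added. The protocol then moved the cells to another medium with VEGF, FGF10, bFGF and ascorbic acid. The comparison asks how the transcripts of the pathway differ between the groups.

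Notch signalling runs between neighbouring cells. A Delta or Jagged ligand on 1 cell binds a Notch receptor on the next, ADAM proteases and the γ-secretase complex cut the receptor, and the freed intracellular domain moves to the nucleus, where it joins Rbpj and a Mastermind protein to switch on targets such as the Hes and Hey repressors. In the developing heart and vessels the pathway is known for its part in endocardial and arterial identity, valve formation and trabeculation, and in other embryonic tissues for holding back neurogenesis and for timing somite formation.

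Each value is a gene count divided by a scaling factor of its library, called a normalized count below; the libraries hold 13769967 to 15940874 counted reads as the steps of the values show. Differences were tested with limma on log2(normalized count + 1) across the 15372 genes whose mean over the 6 libraries reached 10. P-values were adjusted over all of these genes (Benjamini-Hochberg), and the threshold for a call was 0.05. Fold changes are on this scale, libraries labelled Zhx1-KO over 46C-Ctrl, which understates the change of low genes. 46C-Ctrl 2 stood apart in its share of mitochondrial counts, 2.77% against 1.72 to 1.87% in the other 5 libraries. The normalized counts of Zhx1 itself were 460.3, 181 and 457 in 46C-Ctrl against 225, 325 and 308 in the other group, a log2 fold change of -0.25 (SE 0.35) with a limma adjusted p of 0.579. Without 46C-Ctrl 2, which has the low value of its group, the change of Zhx1 was -0.70 with an adjusted p of 0.0113, and without 46C-Ctrl 1 or 46C-Ctrl 3 it was -0.03. The transcript of Zhx1 therefore does not check the labels. Of 6 cardiac progenitor markers, 5 were lower and 0 higher in the libraries labelled Zhx1-KO, with summed normalized counts of 7770 to 8527 against 1081 to 1159. Hand1 made up most of that sum in 46C-Ctrl, at 6036, 5405 and 5881 against 177, 186 and 230. Isl1 gave no call (limma adjusted p = 0.311). Of 12 endoderm markers 11 were lower and 0 higher, and of 7 smooth muscle and mural markers 5 were lower and 1 higher. In bulk RNA, fewer cells of a type and less RNA per cell cannot be told apart, and no label ties the libraries to separate cultures, so a p-value here covers the spread between libraries and nothing more.

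All 38 genes passed the filter on low values, Hes5 only through its level in the libraries labelled Zhx1-KO. Of them, 18 were higher in the libraries labelled Zhx1-KO and 8 lower, and for 12 the test gave no call. The 26 called make 68.4% of the members, against 52.0% of all genes tested. The 18 higher genes are 47.4% of the members, where 25.6% of all genes tested were higher, and the 8 lower genes are 21.1%, where 26.4% of all genes were lower. Of the 38, 14 were called with a change of at least 2-fold, a share of 17.6% among all genes tested. In 29 of the 38 the groups did not overlap, a background of 60.8% over all genes. The median log2 fold change was 0.27 over the 38 genes and 0.01 over all genes tested. The genes called were not all on the same side within any of the receptor, ligand, proteolysis or target groups.

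**Figure D1:**
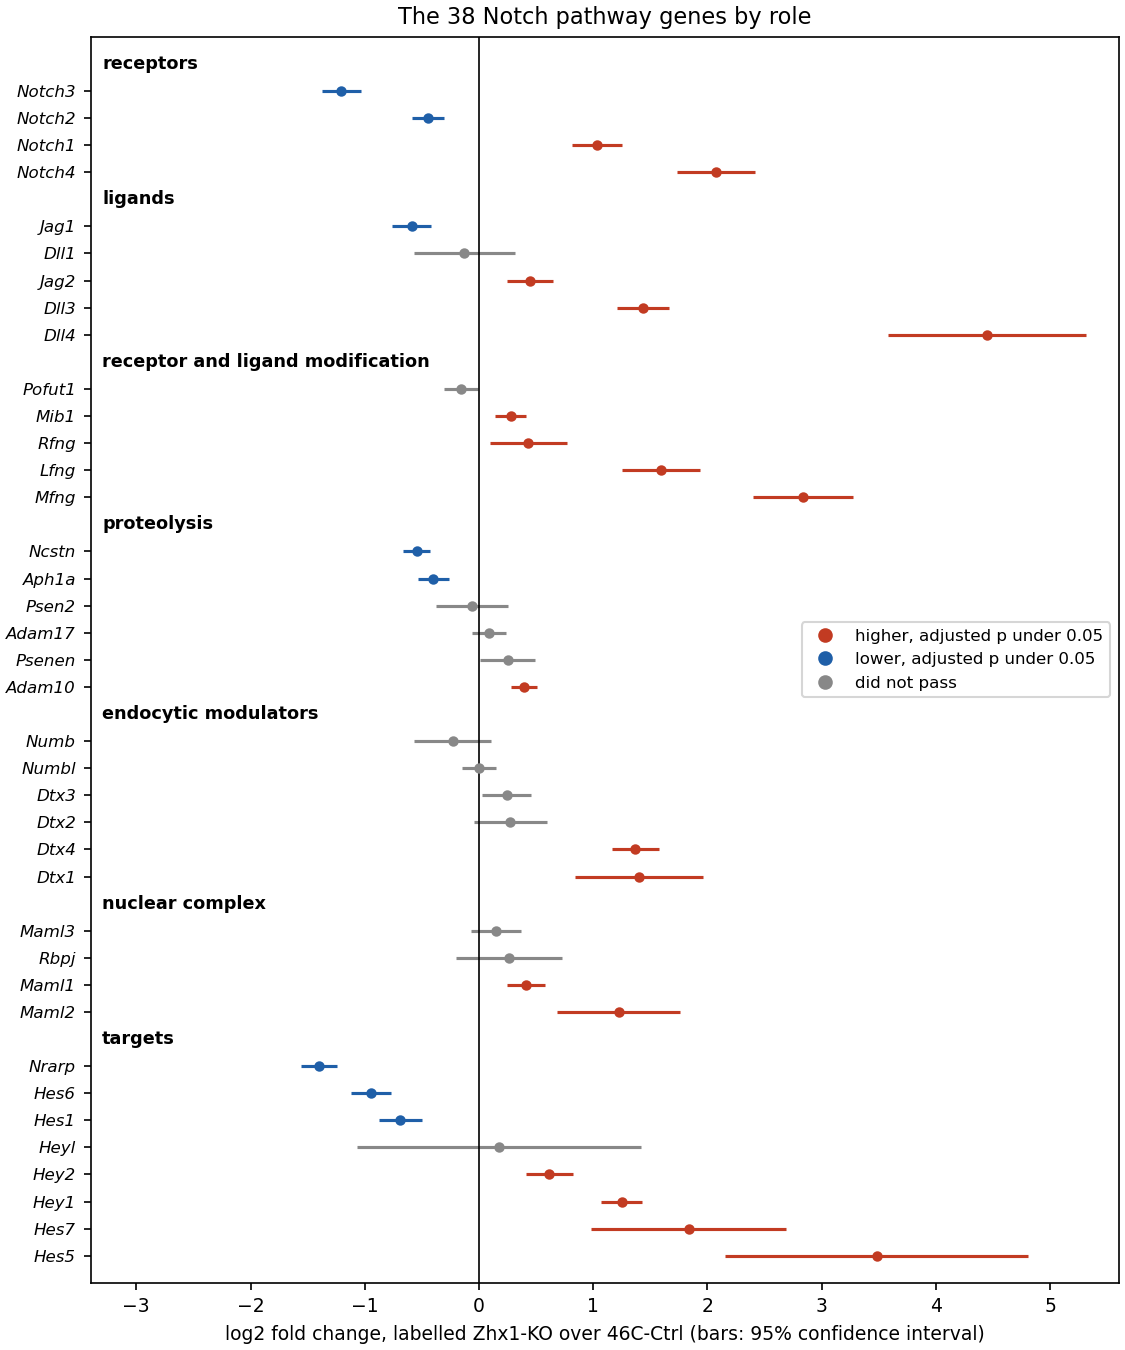
Log2 fold change (libraries labelled Zhx1-KO over 46C-Ctrl, n = 3 each) of the 38 genes by role on the x axis, with points for the limma estimate and bars for its 95% confidence interval. Red genes were higher and blue genes lower at an adjusted p under 0.05, and grey genes did not pass; Dll4 at 4.44 and Nrarp at -1.40 mark the ends of the range.

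All 4 receptors passed the test, 2 in each direction. Notch3, the receptor known from arterial smooth muscle and pericytes, was at 7168, 6153 and 6739 normalized counts in 46C-Ctrl, against 2873, 3122 and 2706 with the label Zhx1-KO. It fell by 1.20 on the log2 scale (SE 0.07, limma adjusted p = 1.23e-05), with every 46C-Ctrl library more than any library labelled Zhx1-KO. Notch2, a broadly expressed receptor, had 2477, 2403 and 2254 against 1726, 1839.5 and 1657, a log2 fold change of -0.45 (SE 0.06, adjusted p = 0.000578). Notch1, the receptor of endothelium and many progenitor cells (chr2:26457903-26516663, minus strand, GRCm38), went the other way, with 1185, 953 and 1067 against 2377, 2178 and 1997 (log2 fold change 1.03, SE 0.10, adjusted p = 8.4e-05). Notch4, which is largely restricted to endothelium, rose from 47.8, 61.1 and 52.7 to 223, 239 and 224 (log2 fold change 2.07, SE 0.15, adjusted p = 2.39e-05). The groups did not overlap for any of the 4 receptors.

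Of the 5 ligands, 3 were higher and 1 was lower, and 1 gave no call. Dll4 (chr2:119325784-119335962, plus strand), the Delta ligand of arterial endothelium and endothelial tip cells, was low in 46C-Ctrl, at 10.7, 22.8 and 7.38 normalized counts. The libraries labelled Zhx1-KO had 324, 306 and 240.3. Its log2 fold change was 4.44 (SE 0.37, limma adjusted p = 5.26e-05), the largest among the 38 genes. Dll3, a divergent Delta protein known from the presomitic mesoderm, where it acts inside the ligand-making cell, had 113, 112 and 115 against 310.4, 316 and 299 (log2 fold change 1.44, SE 0.10, adjusted p = 2.11e-05). Both Delta genes stood clear of their 46C-Ctrl values in every library labelled Zhx1-KO.

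The Jagged ligands moved in opposite directions. Jag1, the ligand tied to outflow tract and smooth muscle development, had 1223, 1076 and 1156 against 752, 813 and 728 (log2 fold change -0.59, SE 0.07, limma adjusted p = 0.000369). Jag2 had 847, 724 and 834 against 1022, 1189 and 1071 (log2 fold change 0.45, SE 0.09, adjusted p = 0.00352). Dll1, a ligand of the presomitic mesoderm and of neural progenitors, had 92.6, 72.5 and 75.9 against 61.5, 79.9 and 79.2, and its groups overlapped. Its log2 fold change was -0.13, with a 95% confidence interval of -0.57 to 0.31 and an adjusted p of 0.604.

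**Figure D2:**
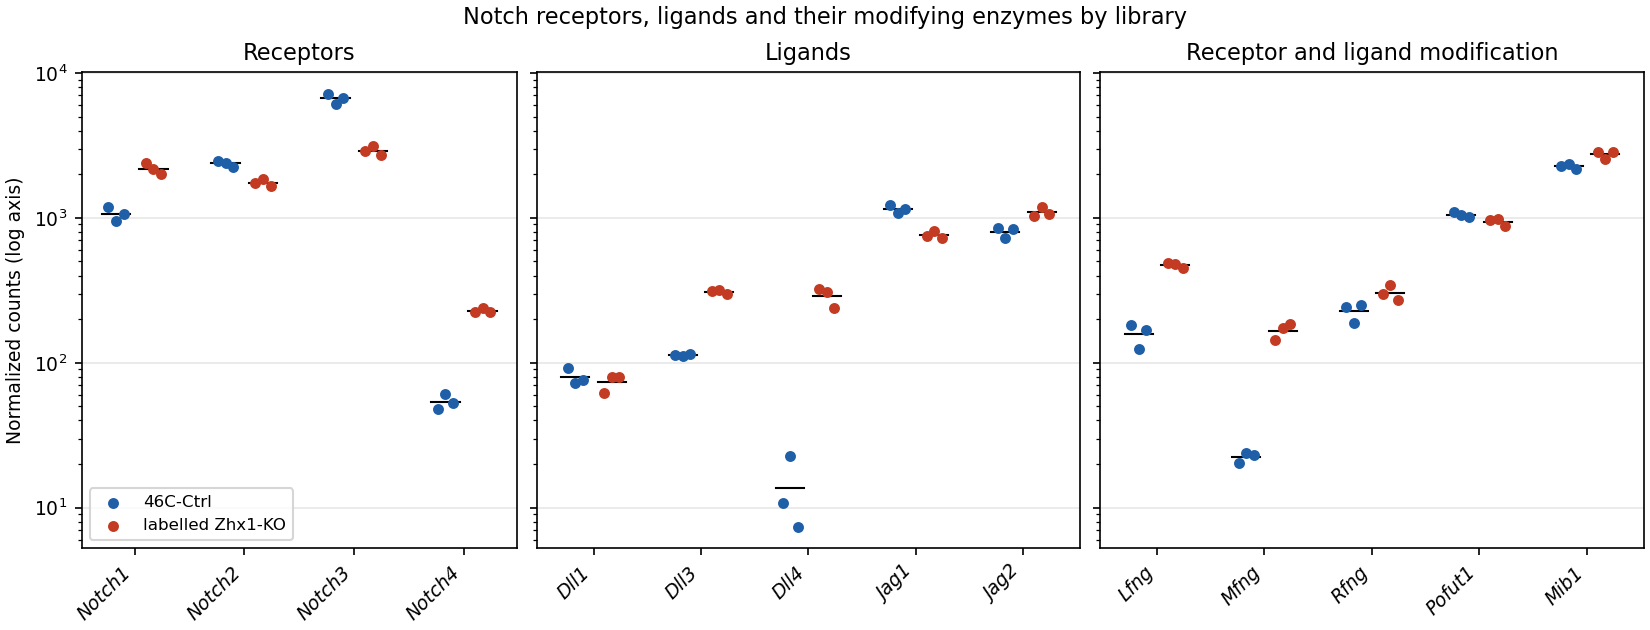
Normalized counts (log axis) of the 4 Notch receptors, 5 ligands and 5 genes for receptor and ligand modification in each library. A point marks each of the 3 libraries of 46C-Ctrl and of those labelled Zhx1-KO, and a bar the group mean. Notch3, Notch2 and Jag1 sit lower in the libraries labelled Zhx1-KO, Notch1, Notch4, Dll3, Dll4 and Jag2 sit higher, and the groups overlap for Dll1. Among the modifying genes, Lfng, Mfng, Rfng and Mib1 sit higher, and Pofut1 did not pass the test.

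Markers of endothelium, the cell type best known for Dll4 and Notch4, were among those that moved with these genes. Of 14 endothelial markers, 10 were higher and 3 lower in the libraries labelled Zhx1-KO, and their summed normalized counts ranged from 6369 to 7245 in 46C-Ctrl, against 9276 to 10180.0. Efnb2 and Ephb4, which other cells express as well, made up much of that sum and were among those that were lower. Sox17, which is on the endoderm list too, was also lower, at means of 438 and 142. Pecam1 gave no call (limma adjusted p = 0.0975). Emcn, an endothelial sialomucin, was at 0.975, 0 and 1.05 in 46C-Ctrl, against 99.8, 102 and 93.3. It passed the filter on low values only through the libraries labelled Zhx1-KO, so the filter partly set the count of endothelial markers. The sum of the smooth muscle and mural list, whose cells are known for Notch3, was lower too, at 16610.0 to 17639 against 5206 to 5463 normalized counts. Acta2 and Tagln made up most of that sum, with 46C-Ctrl means of 7928 and 6599. Of the 7 markers on the list 5 were lower and Myh11 gave no call. Pdgfrb was higher, at means of 753 and 875 (log2 fold change 0.22, limma adjusted p = 0.046). The part of cell makeup in the receptor and ligand values was not tested.

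Among the genes that modify receptors and ligands, 4 of 5 were higher and 0 were lower. The Fringe enzymes add N-acetylglucosamine to O-fucose on Notch and so set which ligands a receptor answers to. Mfng (Manic fringe) rose from 20.5, 23.8 and 23.2 to 144, 173 and 184 (log2 fold change 2.83, SE 0.19, limma adjusted p = 1.74e-05). Lfng (Lunatic fringe), which oscillates in the presomitic mesoderm, rose from 182, 124 and 168 to 486, 479 and 452 (log2 fold change 1.59, SE 0.15, adjusted p = 8.66e-05). For both, the lowest library labelled Zhx1-KO was well above the highest 46C-Ctrl library.

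Rfng (Radical fringe) had 243, 187 and 251 against 300.3, 343 and 273, and the groups lay close together (log2 fold change 0.43, SE 0.14, limma adjusted p = 0.0375). It lies on chromosome 11, where 675 of 1187 genes tested were higher, 114 lower and the median log2 fold change was 0.42, whereas the medians of the other chromosomes lay between -0.12 and 0.02. Relative to the chromosome median, Rfng stood at 0.01 with an adjusted p of 0.966. Without 46C-Ctrl 2 it stood at 0.30 (adjusted p = 0.0844), and without 46C-Ctrl 1, Zhx1-KO 1 or Zhx1-KO 2 its adjusted p was 0.0506, 0.0793 or 0.122. Mib1, the ubiquitin ligase that drives ligand endocytosis, had 2271, 2348 and 2166 against 2833, 2557 and 2835 (log2 fold change 0.28, SE 0.06, adjusted p = 0.00598). Pofut1, which adds the O-fucose that the Fringes extend, had a log2 fold change of -0.16 (95% confidence interval -0.31 to -0.01, adjusted p = 0.0683).

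The protease genes changed by smaller amounts. Adam10, the sheddase that makes the first cut in ligand-bound Notch, was higher, with 1205, 1215 and 1231 against 1615.5, 1571.5 and 1615.1 (log2 fold change 0.39, SE 0.05, limma adjusted p = 0.000328). Nicastrin (Ncstn), the γ-secretase subunit that receives substrates, was lower, with 1577, 1613 and 1548 against 1073, 1115 and 1059.7 (log2 fold change -0.54, SE 0.05, adjusted p = 9.11e-05). Aph1a, the scaffold subunit of the same complex, was lower as well, at 1355, 1286 and 1338 against 956, 1022 and 1038 (log2 fold change -0.40, SE 0.06, adjusted p = 0.000801). Of the exon bases of Aph1a, 12.9% lie opposite those of Car14. The study's alignment and its FPKM quantification used strand, but for the counts behind these values the strand setting is not stated. The adjusted p was 0.283 for Adam17, 0.731 for the presenilin Psen2 and 0.0786 for the small subunit Psenen. The intervals of the log2 fold change ran from -0.06 to 0.24 for Adam17, from -0.38 to 0.25 for Psen2 and from 0.01 to 0.49 for Psenen.

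In the Numb and Deltex families, 2 of 6 genes were higher and 0 lower. Dtx4, a Deltex ubiquitin ligase, had 200.9, 206 and 215 against 496, 550.1 and 565 (log2 fold change 1.37, SE 0.09, limma adjusted p = 1.51e-05). Dtx1, which binds the intracellular part of Notch, had 80.9, 58.0 and 42.2 against 145, 149.7 and 173 (log2 fold change 1.40, SE 0.24, adjusted p = 0.00202). The groups were apart for both of these Deltex genes, with more scatter among the 46C-Ctrl libraries for Dtx1. The other Deltex genes did not pass, at log2 fold changes of 0.28 for Dtx2 (adjusted p = 0.13) and 0.24 for Dtx3 (adjusted p = 0.0585). Numb, an inhibitor that is dealt unequally to daughter cells, had a log2 fold change of -0.23 (95% confidence interval -0.56 to 0.11, adjusted p = 0.224). Its relative Numbl was at -0.00 with an interval of -0.15 to 0.15 (adjusted p = 0.997).

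In the nuclear complex, Maml1 and Maml2 were higher and Rbpj and Maml3 did not pass. Maml2, a Mastermind coactivator, had 102, 64.2 and 124 against 211, 221 and 227 (log2 fold change 1.22, SE 0.23, limma adjusted p = 0.00321). Maml1 had 1384, 1321 and 1512 against 1980.4, 1892 and 1738 (log2 fold change 0.41, SE 0.07, adjusted p = 0.00224). Maml1 also lies on chromosome 11, and relative to that chromosome's median it stood at -0.01 with an adjusted p of 0.92. Rbpj, the DNA-binding protein of the pathway, had 1072, 1356 and 735 against 1348.5, 1190.2 and 1145. Its groups overlapped, and its log2 fold change of 0.26 had a 95% confidence interval of -0.20 to 0.72 (adjusted p = 0.307). The value rested on single 46C-Ctrl libraries: without 46C-Ctrl 2 the change of Rbpj was 0.46 (adjusted p = 0.0439), and without 46C-Ctrl 3 it was 0.02 (adjusted p = 0.893). Maml3 had a log2 fold change of 0.15 (adjusted p = 0.224).

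Of the 8 genes grouped as targets, 4 were higher and 3 lower, and 1 gave no call. Nrarp, a feedback inhibitor that is itself switched on by Notch, had 1077.6, 1131.5 and 1150.5 in 46C-Ctrl, against 438, 433 and 399.6 with the label Zhx1-KO. It fell by 1.40 on the log2 scale (SE 0.07, limma adjusted p = 3.69e-06), the largest fall and the smallest p among the 38 genes. Of its exon bases, 79.4% are covered on the opposite strand by the annotated gene Gm38287. Its reads would enter the value of Nrarp only if the counts, unlike the alignment, were made without strand, which was not tested. Hes1, a repressor expressed in many progenitor cells, had 1381, 1328 and 1510.1 against 816, 955 and 848 (log2 fold change -0.69, SE 0.08, adjusted p = 0.000268). Hes6, which is known to oppose Hes1, had 495, 479 and 476 against 249, 253 and 251 (log2 fold change -0.94, SE 0.07, adjusted p = 4.02e-05). In these 3 genes every library labelled Zhx1-KO was below every 46C-Ctrl library.

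The Hey genes known from the heart and arteries rose. Hey1, expressed in atrial precursors and endothelium, had 342, 296 and 327 against 771, 778 and 745 (log2 fold change 1.25, SE 0.08, limma adjusted p = 1.36e-05). Hey2, expressed in ventricular myocardium and arterial endothelium, had 203, 196 and 198 against 315, 307 and 294 (log2 fold change 0.62, SE 0.09, adjusted p = 0.000824). Heyl, known from smooth muscle, was low in both groups, with 15.6, 10.4 and 10.5 against 8.06, 10.1 and 29.9. The groups of Heyl overlapped, Zhx1-KO 3 stood above the other 5 libraries, and the 95% confidence interval of its log2 fold change ran from -1.07 to 1.42 around 0.17 (adjusted p = 0.81).

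Hes5 and Hes7 rose from low levels. Hes5, the Hes gene of neural progenitors, stood at 3.90, 8.28 and 1.05 normalized counts in 46C-Ctrl, which are 4, 8 and 1 counted reads, against 60.5, 40.45 and 50.2. Its log2 fold change was 3.48 (SE 0.57, limma adjusted p = 0.00153) and 2.61 with a pseudocount of 5 in place of 1, and 31.8% of its exon bases lie opposite those of another annotated gene. Hes7, the Hes gene of the segmentation clock, had 20.5, 8.28 and 11.6 against 54.4, 46.5 and 42.2 (log2 fold change 1.83, SE 0.37, adjusted p = 0.00412). It too lies on chromosome 11, and relative to that chromosome's median it stood at 1.41 (adjusted p = 0.014). Of the exon bases of Hes7, 12.9% lie opposite those of another gene. The groups did not overlap for either gene.

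**Figure D3:**
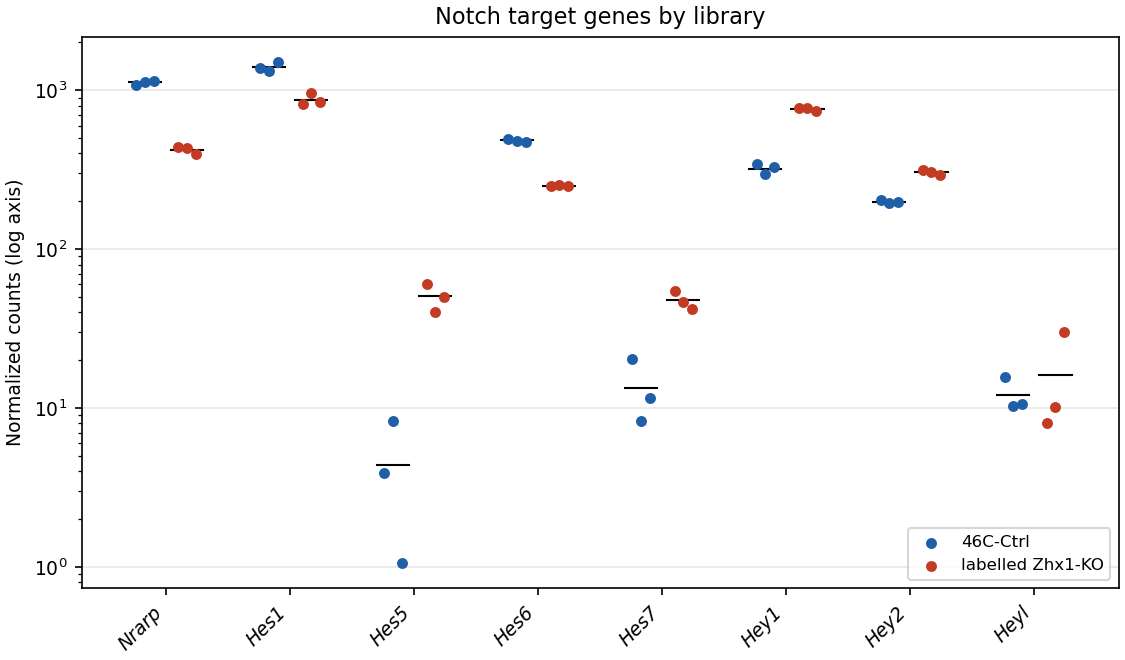
Normalized counts (log axis) of the Hes and Hey genes and Nrarp in each library, with a point for each of the 3 libraries of 46C-Ctrl and of those labelled Zhx1-KO and a bar at the group mean. Nrarp, Hes1 and Hes6 sit lower in the libraries labelled Zhx1-KO, Hes5, Hes7, Hey1 and Hey2 sit higher, and the groups overlap for Heyl.

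Most markers called on the lists of tissues known for Hes5, Hes7, Lfng and Dll3 were higher in the libraries labelled Zhx1-KO. The genes that define the presomitic mesoderm itself were not among them. Of 10 neural progenitor and neuron markers tested, 7 were higher and 1 was lower, with summed normalized counts of 3427 to 3942 in 46C-Ctrl, against 4601 to 4761. Sox2, which pluripotent cells express as well, had the largest upward difference in that sum, with means of 589 and 1986, and Nes, the largest member in 46C-Ctrl, was lower, at means of 2804 and 1652. Pax6 was at 0 in the 3 libraries of 46C-Ctrl and at 29.2, 14.2 and 29.9 in the other 3, while the proneural gene Neurog1 was at 0 in 4 of the 6 libraries and reached 6.05 at most. Of 8 presomitic and somite markers tested, 6 were higher (Uncx, Pax3, Meox1, Tcf15, Foxc2 and Aldh1a2, genes of somites or of other mesoderm) and 0 lower, and the sum of the list ranged from 100.4 to 179 in 46C-Ctrl, against 1075 to 1180.1. Foxc2, which other mesoderm expresses as well, made up most of that sum in the libraries labelled Zhx1-KO, at 737, 753 and 672. Among the genes that define the presomitic mesoderm itself, Tbx6 and Mesp2 gave no call. Tbx6 had a log2 fold change of -0.73 (limma adjusted p = 0.213) and Mesp2 of -1.09 (adjusted p = 0.0794). Msgn1, another of them, was too low to be tested, at 4.88, 2.07 and 7.38 against 1.01, 1.01 and 0.880. Ripply1 and Ripply2 were too low as well. Ripply1 was at 4.88, 1.04 and 0 in 46C-Ctrl, against 9.07, 9.10 and 10.6, with the groups apart. Ripply2 was at 0 in 46C-Ctrl, against 3.02, 0 and 0.880. Pax6, Neurod1, Uncx and Pax3 passed the filter on low values only through the libraries labelled Zhx1-KO, so the filter partly set these counts. The part of these tissues in the values of Hes5, Hes7, Lfng and Dll3 was not tested.

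The promoters of several of these genes hold the letters that Rbpj is known to bind, and the sites are shown because the genes carrying them include both Hes genes that rose from low levels. RefSeq promoters on GRCm38.p6 (250 bases before to 50 after the start) were matched for 31 of the 38 genes; Mfng, Mib1, Dtx3, Dtx4, Hes1, Hey1 and Heyl had no entry. TGGGAA was searched on both strands. It stood in 11 of the 31 genes and in 12 of their 39 promoters (30.8%), against 8397 of all 32851 promoters (25.6%). The longer GTGGGAA, which contains it, stood in 6 of the 39 promoters (15.4%) and in 6.38% of all promoters. CACNAG (the N box of Hes proteins) stood in 41% of the members' promoters and 42.5% of all, and CACGTG (the E box of Hes and Hey proteins) in 10.3% and 7.15%. Of the 5 genes of the target group with an entry, Hes5, Hes7 and Hey2 held TGGGAA and Nrarp and Hes6 did not. Among the other carriers Lfng and Maml2 were higher, Aph1a was lower, and Psen2, Psenen, Dtx2, Rbpj and Maml3 gave no call. The windows printed are all from genes that were higher, and a link between site and direction was not tested. Each window below gives 30 bases in the direction of the gene, with TGGGAA or its reverse complement in capitals.
Hes5, chr4:154960685-154960714, plus strand: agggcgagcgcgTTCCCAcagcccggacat
Hes5, chr4:154960829-154960858, plus strand: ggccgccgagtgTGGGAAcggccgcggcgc
Hes7, chr11:69120261-69120290, plus strand: tcctcccctcacTTCCCAcatttggggcta
Hey2, chr10:30842973-30843002, minus strand: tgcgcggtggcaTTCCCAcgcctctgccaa
Lfng, chr5:140607194-140607223, plus strand: ccagctgggtggTTCCCAgccccttgtccg
Lfng, chr5:140607221-140607250, plus strand: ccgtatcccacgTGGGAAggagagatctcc

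Hes5, Lfng, Hey2 and Rbpj, of which Rbpj gave no call, carry TGGGAA on both strands of the same promoter. Of all promoters, 3.79% hold at least 2 TGGGAA sites, whatever their strands. Hey2 holds a further site across its start, which is not printed. In the last Lfng window the E box CACGTG overlaps the TGGGAA site. These matches are descriptions of letters in the window, and binding was not measured here.

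Because levels can be compared between genes only per length, the values were divided by transcript length and expressed as shares of each family. With 3 libraries against 3 the exact permutation test cannot go below p = 0.1, so the shares are described without a test. Notch3 held 70.6% ± 1.08 (SD, n = 3) of the receptor transcripts in 46C-Ctrl, against 45.6% ± 1.25 with the label Zhx1-KO. The share of Notch1 was 9.51% ± 0.407 and 29.0% ± 1.77, and that of Notch4 was 0.698% ± 0.132 and 4.38% ± 0.209. Notch2, although lower in normalized counts, held 19.2% ± 1.297 and 20.9% ± 0.503, with overlapping libraries. Divided by the length of all exons instead, it held 19.6% ± 1.31 and 23.02% ± 0.437, and the libraries did not overlap. The receptor sum was 1181 ± 78.2 and 793 ± 47.0 normalized counts per kb. Notch3 was first in every library, and the order of Notch1 and Notch2 depended on the length used. Per transcript length Notch2 was ahead of Notch1 in 46C-Ctrl and behind it in the libraries labelled Zhx1-KO, whereas per length of all exons the means of the latter were 21.9% for Notch1 and 23.02% for Notch2.

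Among the ligands, Jag1 held 47.5% ± 0.315 (SD, n = 3) in 46C-Ctrl, against 24.1% ± 0.0350. Jag2 held 36.4% ± 1.11 and 37.8% ± 1.60, with overlapping libraries, and led the ligands in every library labelled Zhx1-KO. Dll4 held 0.863% ± 0.567 and 13.7% ± 1.83, Dll3 10.1% ± 0.567 and 20.8% ± 0.717, and Dll1 5.19% ± 0.431 and 3.63% ± 0.509. The ligand sum was 432 ± 27.0 and 566 ± 32.4 normalized counts per kb.

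Rfng led the Fringes in 46C-Ctrl at 57.1% ± 1.09 (SD, n = 3), against 32.8% ± 2.30. Lfng held 36.4% ± 2.03 and 46.8% ± 2.07, and Mfng 6.57% ± 1.49 and 20.4% ± 2.67, of a Fringe sum of 188 ± 28.3 and 439 ± 20.9 normalized counts per kb. Of the Hes and Hey transcripts, Hes1 held 62.0% ± 1.77 and 46.1% ± 2.26 and was first in both groups. Hes6 held 23.5% ± 1.15 and 14.6% ± 0.430, Hey1 8.60% ± 0.451 and 24.5% ± 0.624, and Hey2 5.06% ± 0.192 and 9.32% ± 0.418. Behind Hes1, Hes6 was next in 46C-Ctrl and Hey1 in the libraries labelled Zhx1-KO. Hes5 and Hes7 were a small part in both groups, Hes5 with 0.230% ± 0.197 and 3.09% ± 0.696 and Hes7 with 0.480% ± 0.221 and 2.05% ± 0.286. Heyl was at 0.174% ± 0.0420 and 0.277% ± 0.215.

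**Figure D4:**
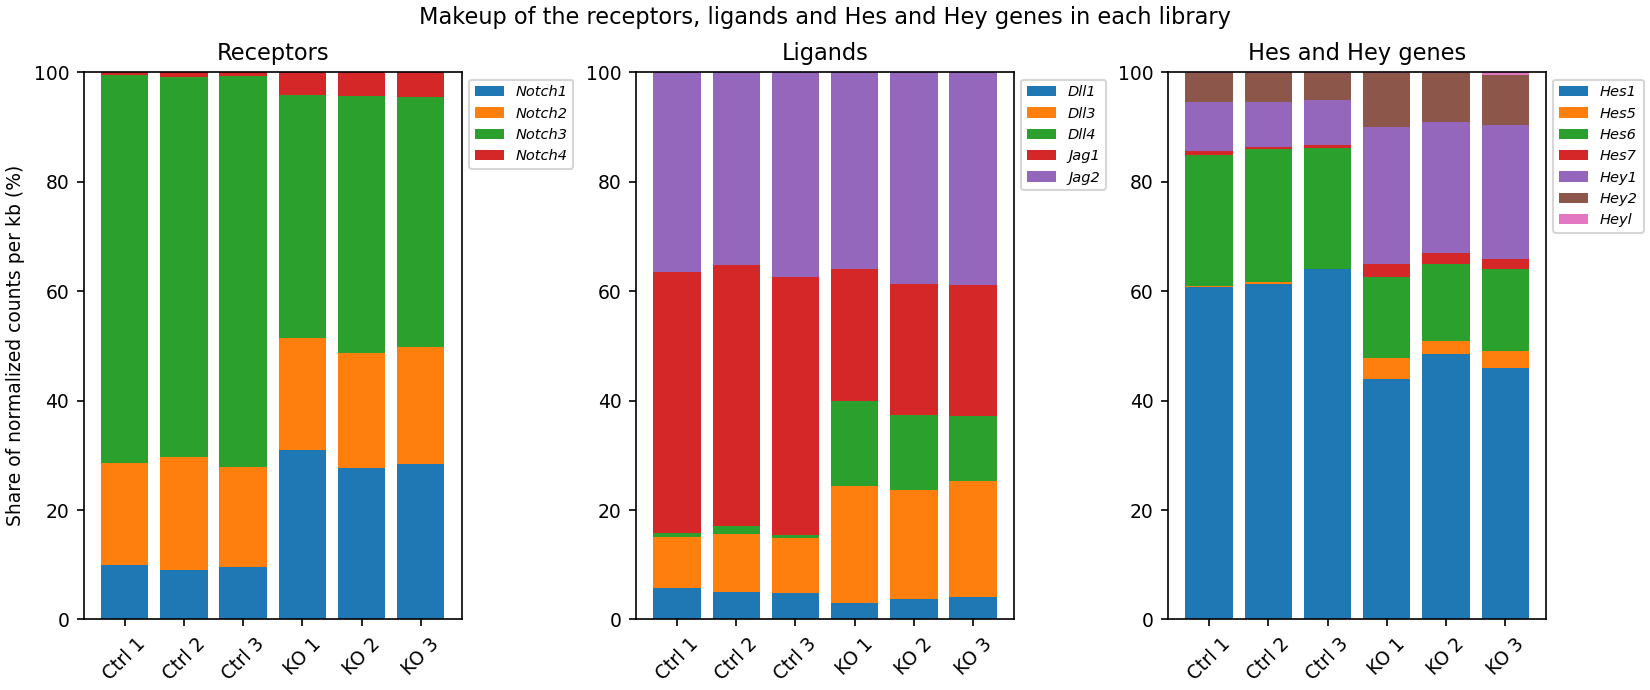
Stacked shares (percent, y axis) of the receptors, of the ligands and of the Hes and Hey genes per transcript length in each library (Ctrl 1 to 3 are 46C-Ctrl, KO 1 to 3 the libraries labelled Zhx1-KO). The group means of the Notch3 share are 70.6% and 45.6%, of the Jag1 share 47.5% and 24.1%, and of the Hes1 share 62.0% and 46.1%.

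Of 60 other genes of the pathway, 56 were tested, with 10 higher, 27 lower and 19 that did not pass, and a median log2 fold change of -0.23. The called share was 66.1%, against 52.0% of all genes tested, of which 25.6% were higher and 26.4% lower. All 6 other receptor glycosylation genes were lower, among them B4galt1, a galactosyltransferase that extends Fringe-made sugars, at 2238, 2021 and 2115 against 829, 804 and 795 (log2 fold change -1.39, SE 0.06, limma adjusted p = 1.95e-06). Of 7 other ligands and ligand ubiquitin ligases tested, 3 were higher and 3 lower. Dlk1, a Delta-like protein without the receptor-activating domain, had 2083, 1780 and 1884 against 289, 313 and 334 (log2 fold change -2.61, SE 0.08, adjusted p = 7.02e-07). Jagn1, a protein of the endoplasmic reticulum that shares little but its name with the Jagged ligands, had a log2 fold change of -1.17 (adjusted p = 1.22e-05). Neurl1a, a Neuralized ubiquitin ligase, was higher by 1.36 on the log2 scale (adjusted p = 0.000798).

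Further along the pathway, 2 of 9 other secretase and turnover genes were higher and 4 lower, and the ubiquitin ligase Nedd4 stood 0.39 higher on the log2 scale (limma adjusted p = 0.000171). Of 7 coactivators, 1 was higher and 4 lower. Of 20 corepressors, 3 were higher and 5 lower. Ncor1, a nuclear receptor corepressor, stood 0.60 higher on the log2 scale (adjusted p = 5.49e-05). It lies on chromosome 11, where the median log2 fold change was 0.42. Relative to the medians of their chromosomes, 8 of all the other pathway genes were higher and 28 lower. Of 7 other Hes relatives and inhibitors tested, 1 was higher, Bhlhe41, a circadian repressor, at 141, 116 and 152 against 447, 449 and 460.3 (log2 fold change 1.73, SE 0.12, adjusted p = 2.12e-05). In that list 5 were lower, among them Id1, an inhibitor of basic helix-loop-helix factors and a known target of BMP signalling, at -0.78 (SE 0.06, adjusted p = 4.06e-05).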

How the data were processed

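RNA-seq libraries of 46C-Ctrl (n = 3) and Zhx1-KO (n = 3) CP cells were grouped by genotype in the labels. The submitters' processing notes name cutadapt 1.18, HISAT2 2.1.0, StringTie 1.3.4d, Cufflinks, DESeq2 and GRCm38; alignment was stranded (RF) and StringTie gave stranded FPKM values, which are not the table used here, and what program made its counts is not stated. The deposited values (a signal, without length correction) are gene counts scaled by the authors with 1 factor for each library, and each value is a whole multiple of its library's step (within 0.01 steps), which gives the counted reads. Values were tested as log2(value + 1) with limma 3.58.1 (trend, empirical Bayes; R 4.3.3) over genes with a mean of at least 10, adjusted by Benjamini-Hochberg, and called at 0.05. Planned count tests were not run: in 2 libraries the step lay so near 1 (1.008 and 1.011) that the values were kept as scaled values. The 38 genes and all lists were chosen with earlier results of these data known. Named were the 38 members, Zhx1, and of the other pathway genes the 4 with the smallest adjusted p in each direction. Markers were given by list with those at or near 0. Other markers named (Emcn, Efnb2, Ephb4, Sox17, Pecam1, Acta2, Tagln, Myh11, Pdgfrb, Sox2, Nes, Foxc2, Tbx6, Mesp2 and the remaining somite genes) were picked after their values were seen. Gene positions and exon lengths came from GENCODE M21 (GRCm38). Alternatives were other pseudocounts, filters and scalings, no trend, a replicate block, a 2-fold minimum, leaving out each library and, chosen after seeing the data, subtraction of chromosome medians and shares by exon length.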

Additional observations from a re-analysis of the deposited data

How the results depend on the processing

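Over 16 alternatives, the 38 genes gave 605 values, of which 569 kept their direction and side of the threshold, 19 lost the call, 10 gained it and 7 changed sign. The sign changed for Numbl with quantile normalization (0.083) and without single libraries (range -0.039 to 0.030), for Heyl with quantile normalization (-0.12) and without Zhx1-KO 3 (range without single libraries -0.37 to 0.52), and for Maml1 relative to its chromosome median (-0.010). Numbl and Heyl were not called in any of these. With a minimum of 2-fold, 12 members were higher and 2 lower, 1493 of all genes were higher and 1207 lower, and 2 other pathway genes were higher and 6 lower. Apart from the 2-fold minimum and from Maml1, the calls lost were of Rfng, with an adjusted p of 0.063 without trend and 0.0506 to 0.122 without single libraries. Quantile normalization added Adam17, Psenen, Dtx3 and Maml3 (22 members higher). Without Zhx1-KO 1, Psenen (0.0265) and Dtx2 (0.0388) passed, and without 46C-Ctrl 1, Dtx3 (0.0142), which also passed relative to its chromosome median (0.049). Without single libraries, 17 to 19 members were higher and 8 lower. Samples with the same number did not deviate together (correlations 0.00419, -0.069 and 0.000587). The values therefore show no pairing by number, but with 3 libraries in each group they cannot exclude it. With the replicate block, 18 members were higher and 8 lower, Rfng lost its call (adjusted p 0.0784) and Dtx3 gained it (0.0453). Hes5, Hes7 and Heyl could not be tested with a mean of at least 50. Of 133 values for shares, 123 moved by less than the spread and 10 by more, and the sign changed in 1 of the 133 (Heyl without Zhx1-KO 3, -0.02 percentage points). The 10 came from dividing by the length of all exons. The planned edgeR and DESeq2 tests were not run. Low counts limit Hes5, Hes7 and Heyl.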
